A study of Rattus norvegicus with 9 samples.

Results

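Cytosolic ribosomal proteins are the protein parts of the ribosomes that translate nuclear-encoded mRNA. Their genes were chosen here by symbol, as Rpl, Rps or Rplp with digits and at most one letter a, x or y, plus Rpsa, with at least 10 raw reads in 3 or more of the 9 libraries. The rule took 70 of the 15565 genes present in both deposited tables. Of these, 28 encode proteins of the small (40S) subunit and 40 encode proteins of the large (60S) subunit. Rplp0 and Rplp1 belong to the P stalk of the large subunit. Rps19 fitted the symbol and not the reads minimum. Rplp2, Rps13, Rps26, Rpl10a, Rpl38 and Rpl23a were not analysed here.

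The libraries were made from livers of male SD (Sprague Dawley) rats, with 3 libraries in each of 3 groups. Normal diet rats were the controls, and high-fat diet rats were the model of non-alcoholic fatty liver disease, which 8 weeks of that diet were meant to induce. SCL-treated rats received Smilax china L. (SCL), a climbing plant used in traditional Chinese medicine, and the series' design text writes this group as SCS. The diet of the SCL-treated rats, their dose and the preparation are not given in the labels, which call their livers fatty liver too. The labels do not say whether each library is a different animal. A p-value therefore refers to the spread between these libraries, which may be a technical one. Libraries of a group differed by more than counting noise: in the 9 pairs, chi-square over genes was 38.5 to 688 times its degrees of freedom, so none was counted as a library deposited more than once.

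A ribosome carries a single copy of most ribosomal proteins, and its assembly needs them in matched amounts. In mammals their mRNAs begin with a run of pyrimidines, the terminal oligopyrimidine (TOP) tract, through which the mTOR kinase and LARP1 set how strongly they are translated. That control acts mainly on translation, which the mRNA levels measured here do not show. The liver exports much of the protein it makes, and hepatocytes are rich in ribosomes bound to the endoplasmic reticulum.

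Library totals ran from 12413774 to 15521648 reads. Mitochondrial genome transcripts took between 3.85% and 49.0% of the reads, and exceeded 40% in high-fat diet replicate 3 and SCL-treated replicate 2. All 12 hepatocyte markers listed were measured, led by albumin (Alb). In RNA from whole tissue, fewer cells of a type and less RNA per cell cannot be told apart.

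Ribosomal protein mRNAs were abundant in every library, with a 939.5-fold span between the highest and the lowest mean. In deposited FPKM (reads scaled for gene length and library size), the median of the 70 genes was 133 against 2.41 for all genes in both tables. FPKM compares genes only as far as the length used for each is right. The length implied by reads and FPKM ran from 246 to 5151 bases among the members, so their order depends on it. Rpl7 had 52187 reads over the 9 libraries at a mean of 82.1 FPKM, and Rpl10 had 61041 at 638 FPKM. The mean over 9 libraries exceeded 100 FPKM for 40 of them, and 36 were among the 500 genes of highest mean FPKM. The large subunit genes had a median of 173 FPKM and the small subunit genes one of 90.7 FPKM.

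Rpl41, which encodes the smallest protein of the ribosome, had the highest mean level, 890 FPKM. Its values were 501, 644 and 1134 FPKM in the normal diet libraries, 578, 1417 and 1266 in the high-fat diet libraries, and 1208, 573 and 688 in the SCL-treated libraries. The 3 groups overlapped, and each group held both low and high libraries. Rps27a, made as a fusion with ubiquitin, followed with a mean of 722 FPKM and 375 to 1070 FPKM over the libraries. Rpl10, one of the last proteins to join the 60S subunit, had a mean of 638 FPKM over a narrower span of 434 to 805. Rpl35, at the mouth of the tunnel through which the new protein leaves, had a mean of 618 FPKM, and Rps15 of the 40S head one of 604. The order of these 5 genes was not fixed: over the 9 libraries Rpl41 ranked between 1 and 7 among the 70 genes, and Rps15 between 2 and 9. Their means lie within the spread of a single gene over libraries.

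At the other end, 9 genes had a mean below 5 FPKM. The lowest was Rpl7a, with a mean of 0.947 FPKM and only 3 to 18 reads per library. Rps9, which contributes to the accuracy of decoding, had a mean of 1.39 FPKM, Rpl39 of the exit tunnel 1.99, Rpl36a 2.18 and Rps18 of the 40S head 2.30. Rps6, the substrate of the S6 kinases downstream of mTOR, lay just above this class at 6.25 FPKM. In the normal diet libraries Rps6 stood at 4.53, 4.97 and 5.83 FPKM, in the high-fat diet libraries at 3.30, 7.45 and 8.49, and in the SCL-treated libraries at 3.77, 5.37 and 12.5.

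**Figure D1:**
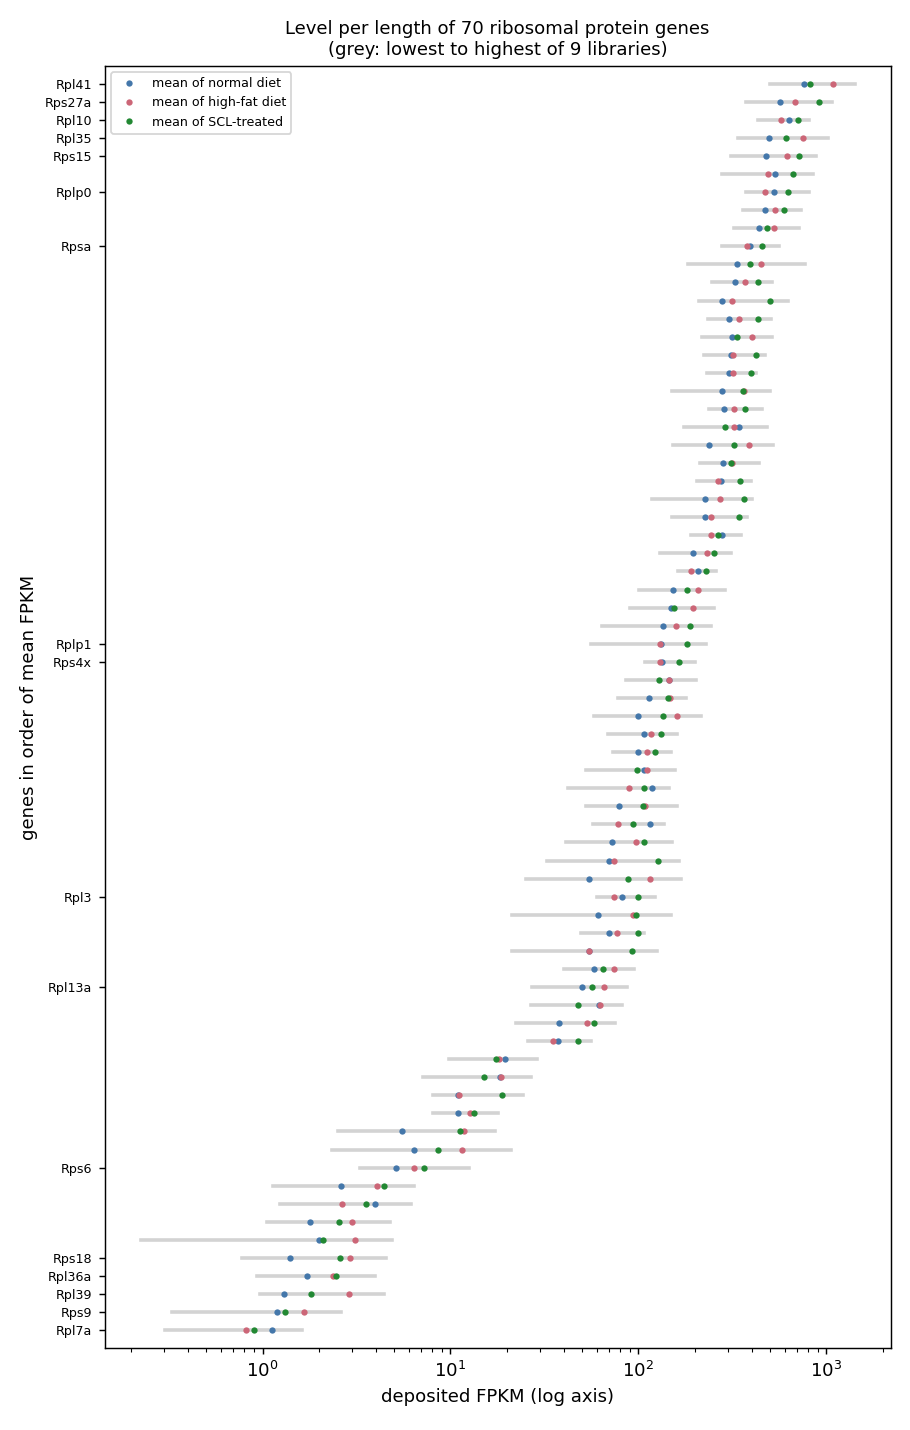
Deposited FPKM of the 70 ribosomal protein genes on a log axis, ordered by the mean over 9 libraries; coloured points are the means of the 3 libraries of a group and grey lines run from the lowest to the highest library. Names are given for the 5 highest and 5 lowest genes, the P stalk and the genes chosen for description. Means exceed 100 FPKM for 40 genes, and 9 genes have means below 5 FPKM, down to 0.947 FPKM for Rpl7a.

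Where a copy is nearly identical to one of these genes, reads may be split between them. How the authors' counting treated reads with several matches is not given in the sources used here, so the levels of such genes are uncertain. Outside the 70 genes, the tables listed 24 symbols that name a pseudogene or paralog of a member, and 7 of these had a higher mean FPKM than the member itself. Rps18l1 stood at 364 FPKM against 2.30 for Rps18, a 159-fold ratio, and took 94.6% to 98.5% of the reads of the pair. Rpl36al stood at 248 FPKM against 2.18 for Rpl36a. Rps21-ps1, a pseudogene symbol, stood at 385 FPKM against 18.3 for Rps21. The other symbols above their member were Rpl26-ps2, Rpl31l4, Rps10l1 and Rpl6-ps1, at 2.63 to 13.1 times the member's level.

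**Figure D2:**
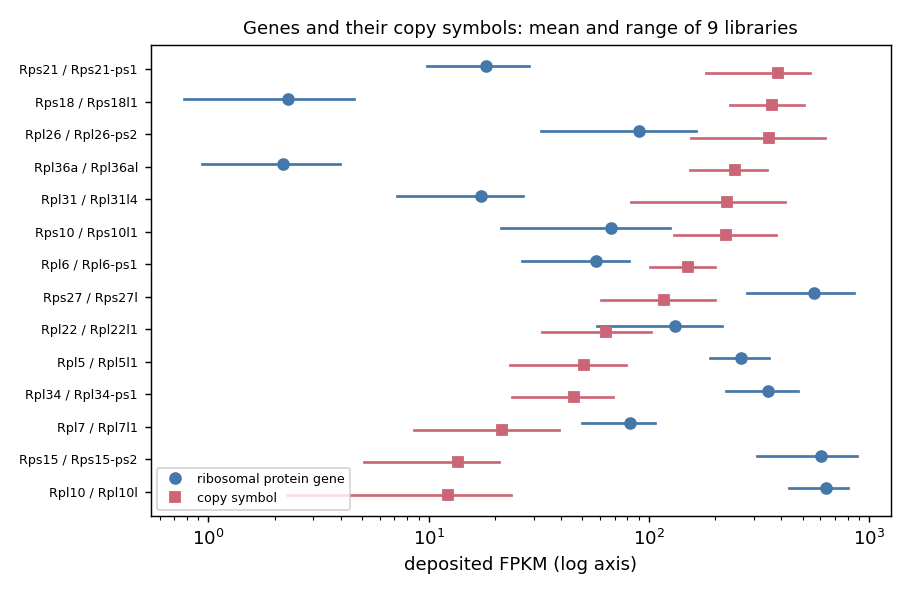
Mean deposited FPKM (points) and range over 9 libraries (lines) of ribosomal protein genes (circles) and of pseudogene or paralog symbols named after them (squares) with at least 10 FPKM, on a log axis. In the upper 7 pairs the copy symbol is the higher one, from 151 against 57.4 FPKM for Rpl6-ps1 and Rpl6 to 364 against 2.30 for Rps18l1 and Rps18.

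Copies in the genome were counted by symbol alone. Such a count does not measure how alike the sequences are, and cannot show whether copies took a gene's reads. RefSeq lists 993 symbols that name a copy of one of the 70 genes, of which 796 are pseudogenes. The 9 genes below 5 FPKM had a median of 15 such symbols and the genes above 100 FPKM a median of 14. When the reads of copy symbols in the tables were added to their member, the medians described below became 0.38, 0.19 and 0.54, and no gene passed the threshold. That addition was chosen after the data were seen. It also joined paralogs such as Rps27l and Rpl22l1 to their members, although their likeness to the members was not measured.

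The ribosomal protein genes together took 0.741%, 0.897% and 1.24% of all reads in the normal diet libraries. The share was 0.723%, 1.40% and 1.06% in the high-fat diet libraries and 1.25%, 1.02% and 1.26% in the SCL-treated libraries. The group means were 0.961% ± 0.258 (SD, n = 3), 1.06% ± 0.339 and 1.18% ± 0.139, and the groups overlapped. The ratio of large to small subunit reads was 2.40 ± 0.112 in normal diet, 2.58 ± 0.0604 in high-fat diet and 2.32 ± 0.139 in SCL-treated livers (SD, n = 3 each). For this ratio every high-fat diet library, at 2.51 to 2.63, lay above those of normal diet (2.28 to 2.49) and SCL treatment (2.22 to 2.48). The difference was not tested, and the ratio leaves out reads assigned to copy symbols.

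High-fat diet was compared with normal diet to see what the diet changed in the liver. No ribosomal protein gene passed the threshold of adjusted p under 0.05 in edgeR's quasi-likelihood test, where 0.0083% of the 12041 genes tested did, and the lowest adjusted p among the 70 was 0.911. The fitted log2 fold change was above 0 for 59 genes and below 0 for 11, with a median of 0.29. Over all genes tested 52.8% were above 0, and the median was 0.03. One of the 70 genes, Rpl39, had an unadjusted p under 0.05, against 4.32% of all genes tested. DESeq2 and limma-voom passed no member either, where they passed 0.415% and 0.216% of all genes. In limma-voom with sample quality weights 30 of the 70 genes (42.9%) had an unadjusted p under 0.05, beside 30% of all genes. In no gene did the 3 high-fat diet libraries lie wholly above the normal diet libraries, which happened for 5.32% of all genes tested.

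The shift was spread over both subunits. On the log2 scale, the median over large subunit genes was 0.39, with 35 of 40 above 0, and that over small subunit genes 0.24, with 23 of 28 above 0. Both P stalk genes, whose proteins recruit the elongation factors, were near 0: the log2 fold change was -0.06 (SE 0.37) for Rplp0 and 0.11 (SE 0.54) for Rplp1. Rplp0 stood at 471, 452 and 704 CPM (the usual library-scaled read count, here after TMM scaling) in normal diet, 329, 708 and 521 in high-fat diet, and 628, 634 and 989 in SCL-treated livers. Rplp1 was lowest in high-fat diet replicate 1, at 22.4 CPM, and highest in SCL-treated replicate 3, at 127 CPM. In both genes the high-fat diet libraries spanned the whole range of the controls and held the lowest library of all 9.

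Rpl39 had the largest fold change, 1.31 on the log2 scale (SE 0.52). It stood at 1.89, 2.99 and 2.82 CPM in normal diet and at 2.09, 6.67 and 10.5 CPM in high-fat diet, so that 1 high-fat diet library lay inside the control range. The next were Rps20 at 1.27 (SE 0.67), Rps24 at 1.24 (SE 0.71), Rps18 at 1.21 (SE 0.65) and Rpl13 at 1.05 (SE 0.68). The Rps20 protein is marked with ubiquitin on stalled ribosomes, and Rps24 is among the genes mutated in Diamond-Blackfan anaemia. Rps24 ran from 18.0 to 72.4 CPM in normal diet, and stood at 16.04, 123 and 146 CPM in high-fat diet. All 5 genes shared this form: high-fat diet replicates 2 and 3 lay above every normal diet library, and replicate 1 did not.

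The lowest log2 fold changes were those of Rps14 at -0.49 (SE 0.63), Rps16 at -0.48 (SE 0.32), Rps2 at -0.39 (SE 0.34), Rpl7a at -0.37 (SE 0.69) and Rpl5 at -0.09 (SE 0.36). Rps16 stood at 140, 215 and 220 CPM in normal diet and 115, 169 and 128 CPM in high-fat diet. Rpl5, which carries the 5S ribosomal RNA into the large subunit and binds Mdm2, stood at 206, 252 and 375 CPM in normal diet and 167, 355 and 262 CPM in high-fat diet.

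The median moved with single libraries. Leaving out high-fat diet replicate 1 gave 0.60, and leaving out normal diet replicate 3 gave 0.61. It was 0.12 with normal diet replicate 1 left out and -0.01 with high-fat diet replicate 2 left out. With the log2 mitochondrial share of each library as a covariate the median was -0.07, and 48 of the 70 genes were below 0. It was 0.18 with scaling to library totals alone and 0.71 under limma-voom.

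**Figure D3:**
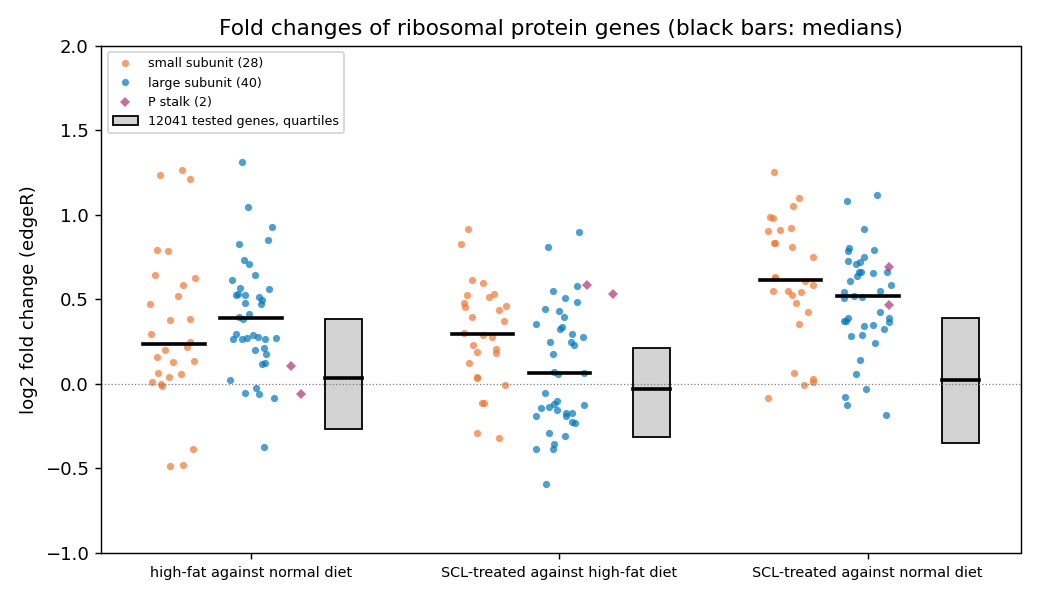
Log2 fold changes from edgeR for the 28 small subunit, 40 large subunit and 2 P stalk genes in the 3 comparisons, with black bars at the medians and a grey box over the middle part (lower to upper quartile) of the 12041 genes tested. The members lie mostly above 0 against normal diet, with medians of 0.29 for high-fat diet and 0.55 for SCL treatment over all 70, and no member passed the threshold.

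SCL-treated livers were compared with high-fat diet livers, as in the authors' deposited table. The diet of the SCL-treated rats is not given, so agent and diet cannot be told apart here. No ribosomal protein gene passed the threshold in edgeR, as was the case for 0% of all genes tested. DESeq2 passed no member and 0.0083% of all genes, and limma-voom no member and 0% of all genes. The log2 fold change was above 0 for 46 of the 70 genes and below 0 for 24, with a median of 0.23, where 46.7% of all genes tested were above 0 and the median of all was -0.03. Rps12 alone had an unadjusted p under 0.05 in edgeR, against 1.95% of all genes, and 1 gene did in limma-voom, against 7.7% of all genes. Under limma-voom the median was -0.03.

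In this comparison the subunits had different medians. The small subunit genes had a median of 0.30 with 23 of 28 above 0, while the large subunit genes had one of 0.06 with 21 of 40 above 0. The difference between subunits was not tested. The log2 fold change was 0.53 (SE 0.37) for Rplp0 and 0.58 (SE 0.55) for Rplp1.

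Rps12, in the beak of the 40S head, had the highest log2 fold change, 0.92 (SE 0.41). It stood at 3.55, 7.53 and 7.29 CPM in high-fat diet and at 6.19, 15.8 and 12.6 CPM in SCL-treated livers, where replicate 1 lay inside the high-fat diet range. Rpl26 followed at 0.90 (SE 0.59), Rps10 at 0.83 (SE 0.52), Rpl29 at 0.81 (SE 0.44) and Rps23 at 0.61 (SE 0.35). The values of Rpl26 and Rps10 may depend on how reads were shared with their copies. Rpl26-ps2 stood at 171, 634 and 554 FPKM in high-fat diet and 437, 258 and 155 in SCL-treated livers. Rps10l1 stood at 143, 378 and 279 FPKM in high-fat diet and 318, 202 and 131 in SCL-treated livers. Rps23 lies at the decoding centre and stood at 77.4, 170 and 127 CPM in high-fat diet and 188, 210 and 175 CPM in SCL-treated livers. Rpl3, next to the peptidyl transferase centre, stood at 230, 304 and 236 CPM in high-fat diet and 340, 332 and 481 CPM in SCL-treated livers, with a log2 fold change of 0.58 (SE 0.28) and an adjusted p of 1 in edgeR. Rpl3 and Rps23 were the 2 of 70 genes in which every SCL-treated library lay above every high-fat diet library, which happened for 2.37% of all genes tested. The lowest log2 fold changes were -0.59 (SE 0.52) for Rpl39, -0.38 for Rpl13 (SE 0.68) and Rpl35a (SE 0.96), -0.35 for Rpl41 (SE 0.49) and -0.32 for Rps24 (SE 0.70). This comparison and the previous one share the high-fat diet libraries, so their values for a gene are not independent.

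The median was -0.10 with high-fat diet replicate 1 left out, 0.50 with replicate 2 and 0.34 with replicate 3 of that group left out, and 0.15 with SCL-treated replicate 3 left out. It was 0.14 with scaling to library totals alone and 0.34 with the mitochondrial share as a covariate.

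SCL-treated livers were also compared with normal diet livers. No ribosomal protein gene passed the threshold in edgeR, against 0.0083% of all genes tested, and the lowest adjusted p of the 70 was 0.665. DESeq2 passed 0.332% of all genes and limma-voom 1.26%, none of them a member. The log2 fold change was above 0 for 64 genes and below 0 for 6, with a median of 0.55. Of all genes tested 51.8% were above 0, and their median was 0.03. In edgeR 3 genes had an unadjusted p under 0.05 (Rps12, Rpl29 and Rps23), which is 4.29% of the members against 6.88% of all genes. Limma-voom gave 43 of 70 (61.4%) at that level, against 28.1% of all genes.

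In 11 of the 70 genes every SCL-treated library lay above every normal diet library, which happened for 7.47% of all genes tested. Among them were Rps3, Rps10, Rps20 and Rps23 of the small subunit and Rpl3, Rpl7, Rpl18, Rpl30 and Rpl39 of the large subunit. Names in this group outside the rule for named genes were given after their values were seen. Rpl3 stood at 255, 257 and 289 CPM in normal diet, with a log2 fold change of 0.52 (SE 0.28). Rps20 had the highest log2 fold change, 1.26 (SE 0.67), from 1.04, 1.90 and 2.60 CPM to 4.08, 4.85 and 4.30 CPM. Rpl26, which lies at the tunnel exit, followed at 1.12 (SE 0.59), Rps18 at 1.10 (SE 0.65), Rpl29 at 1.08 (SE 0.44) and Rps12 at 1.05 (SE 0.41). Rpl29 stood at 120, 125 and 253 CPM in normal diet and 225, 390 and 441 CPM in SCL-treated livers, so that normal diet replicate 3 lay inside the treated range.

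The 5 lowest were Rpl6 at -0.19 (SE 0.37), Rpl7a at -0.13 (SE 0.68), Rps16 at -0.08 (SE 0.32), Rpl23 at -0.08 (SE 0.42) and Rpl31 at -0.03 (SE 0.54). For Rpl6 and Rpl31 the tables also list copies that may take reads, as they do for Rpl26, Rps10 and Rps18 above. Rpl23 stood at 127, 178 and 236 CPM in normal diet and 264, 118 and 131 CPM in SCL-treated livers. Its treated libraries spanned the control range.

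Rpl13a and Rplp0 are often used as reference genes in expression work. Rpl13a, which also acts outside the ribosome in silencing inflammatory mRNAs, stood at 41.9, 65.8 and 99.1 CPM in normal diet, 32.5, 134 and 138 in high-fat diet, and 98.5, 94.9 and 77.2 in SCL-treated livers. It thus ranged 4.26-fold over the 9 libraries, with a log2 fold change of 0.56 (SE 0.49) for the diet. Rplp0 ranged 3.004-fold. Rps4x, the X-linked form of its protein, stood at 116 to 297 CPM, and Rpsa, a small subunit protein also described as a laminin receptor, at 229 to 638 CPM. Their log2 fold changes for the diet were 0.06 (SE 0.33) and 0.06 (SE 0.37).

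The median was 0.86 without normal diet replicate 3, with all 70 genes above 0, and 0.38 without normal diet replicate 1. Scaling to library totals alone gave 0.33, and the mitochondrial share as a covariate 0.23. The authors' deposited table of SCL-treated and high-fat diet libraries has no member at an adjusted p under 0.05 and no other gene either. The authors' deposited table of normal and high-fat diet libraries has no member among its 53 such genes.

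The 70 genes varied together from library to library, also within groups. The median member CPM was 71.2, 89.8 and 140 in the normal diet libraries, 70.7, 173 and 143 in the high-fat diet libraries, and 147, 129 and 158 in the SCL-treated libraries. Normal diet replicates 1 and 2 and high-fat diet replicate 1 were low, and the other 6 libraries were high. The title of high-fat diet replicate 1 has another letter and number code than the titles of replicates 2 and 3, and the labels do not say what the code marks. Those first 3 were the lowest libraries for 46 of the 70 genes, as they were for 11.1% of all genes tested. High-fat diet replicate 1 was the lowest of all 9 for 45 genes and normal diet replicate 1 for 14. The highest library was SCL-treated replicate 3 for 22 genes and high-fat diet replicate 2 for 17.

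**Figure D4:**
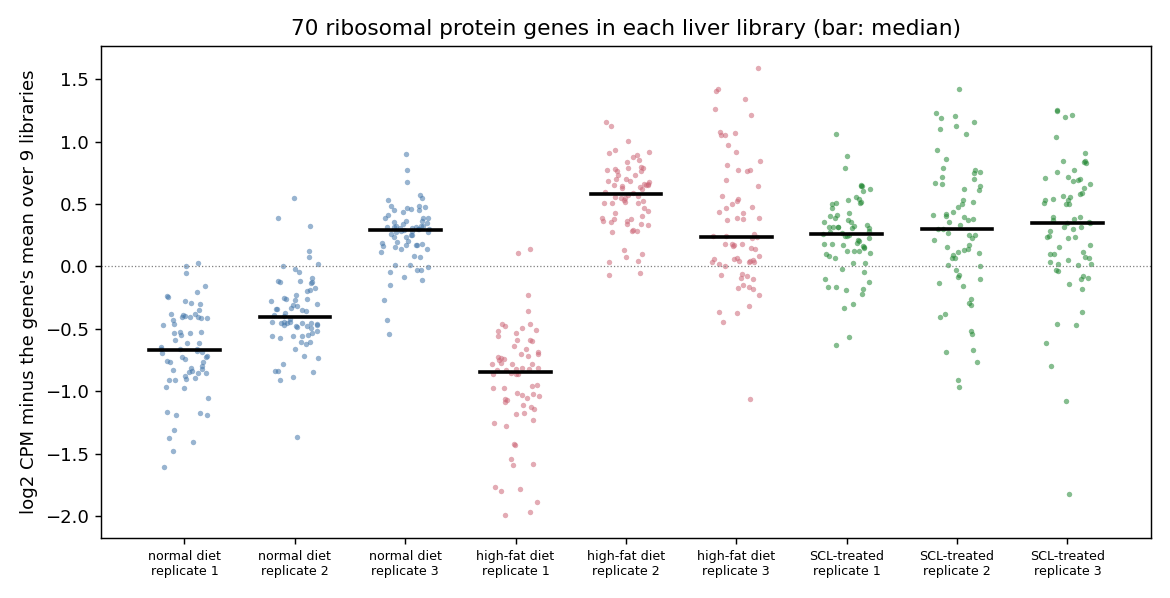
Log2 CPM of each of the 70 genes in each of the 9 libraries, as the difference from the gene's own mean over the libraries; points are genes and bars are medians. The medians are -0.67, -0.41 and 0.29 for normal diet, -0.84, 0.58 and 0.23 for high-fat diet, and 0.26, 0.30 and 0.35 for SCL treatment.

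Across the 9 libraries, the median Pearson r of a gene with the mean of the other 69 was 0.87, and 47 genes had r above 0.8. Of the tested genes outside the set, 6.81% had r above 0.8 with the mean of the members. The libraries share their scaling factors and depth among all genes, and r is given as a description. Rps2 was the one gene with a negative r, -0.21. It stood at 88.8, 94.9 and 107 CPM in normal diet, 96.5, 84.4 and 41.8 in high-fat diet, and 125, 70.6 and 109 in SCL-treated livers. Its lowest libraries were those with over 40% mitochondrial reads.

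The width of a gene's range over the libraries differed widely among the members. The median ratio of highest to lowest library was 3.39. Rps16 at 1.91, Rpl10 and Rpl3 at 2.09, Rpl8 at 2.21 and Rpl5 at 2.24 had the narrowest ranges. Rpl13 ranged 12.4-fold, Rps9 10.9-fold, Rps29 9.71-fold and Rps24 9.12-fold, each with its lowest value in high-fat diet replicate 1. Rps29, a small zinc-binding protein of the 40S head, stood at 7.61, 15.7 and 29.4 CPM in normal diet, 5.28, 41.1 and 44.6 in high-fat diet, and 19.2, 28.4 and 51.2 in SCL-treated livers. Rpl35a had between 1 and 21 reads per library, so that its range holds much counting error.

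The 10 genes outside the set with the highest r with the mean of the 70, at 0.98 to 0.99 over 9 libraries, were Laptm5, Mrps18c, Psmb7, Ndufb9, Atp5l, Plekhj1, Eif3k, Psmb1, LOC690871 and LOC686074. Mrps18c belongs to the mitochondrial ribosome, Psmb7 and Psmb1 to the proteasome, Ndufb9 and Atp5l to the respiratory chain and ATP synthase, and Eif3k to an initiation factor complex. Laptm5 is a lysosomal membrane protein of blood cells. Ndufb9 stood at 87.4, 107 and 192 CPM in normal diet, 79.9, 244 and 188 in high-fat diet, and 163, 189 and 175 in SCL-treated livers. The 5 genes with the lowest r, at -0.98 to -0.99, were Atxn3, Dennd5b, Stat5b, Hcfc1 and Ep300. Stat5b, a transcription factor of growth hormone signalling, ran the opposite way: 37.2, 25.3 and 15.03 CPM in normal diet, 41.8, 13.4 and 12.8 in high-fat diet, and 17.5, 15.04 and 13.7 in SCL-treated livers.

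Gene length moved with this profile. The length implied by reads and deposited FPKM had a median of 700 bases for the members and 2400 for all genes tested, and 61 of the 70 members lay in the shortest quartile of the tested genes, up to 1574 bases. The shortest quartile of all tested genes had median differences from their own mean of -0.27, -0.13 and 0.14 in the normal diet libraries, -0.28, 0.24 and 0.01 in the high-fat diet libraries, and 0.23, -0.11 and 0.22 in the SCL-treated libraries. The longest quartile had 0.17, 0.12 and -0.08 in normal diet, 0.20, -0.12 and 0.02 in high-fat diet, and -0.19, 0.15 and -0.24 in SCL-treated livers. Short genes were thus low in the same 3 libraries as the members, and in addition in SCL-treated replicate 2, where the members were high. The median fold changes of the shortest quartile were 0.11, 0.09 and 0.23 in the order of the comparisons above, and those of the longest quartile -0.02, -0.16 and -0.14. The part of length in the members' profile was not tested.

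**Figure D5:**
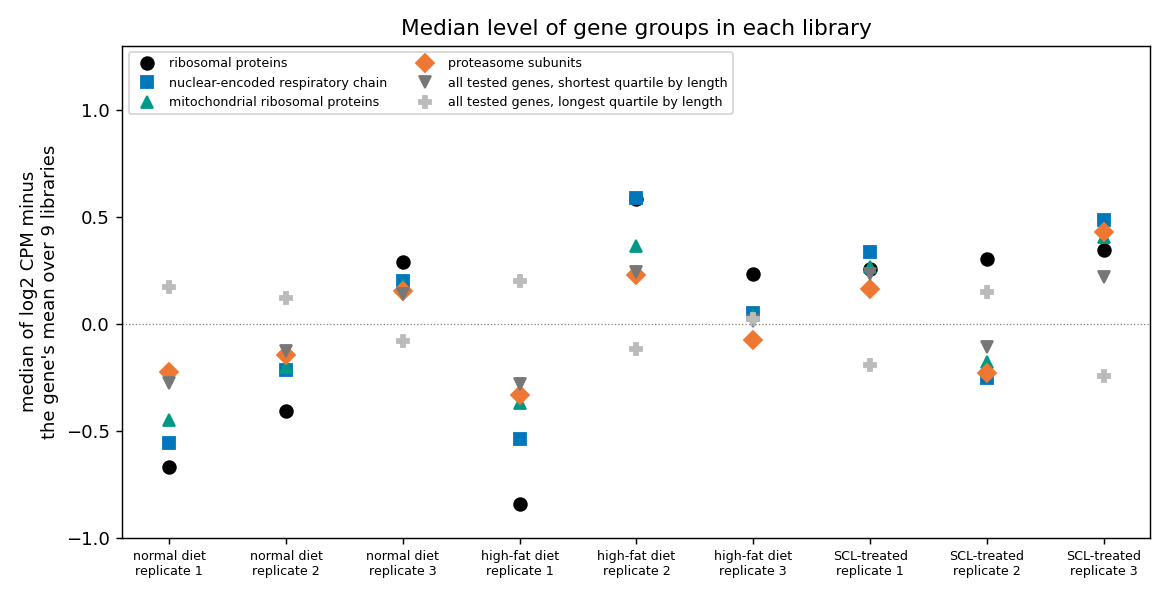
Median over the genes of each group of log2 CPM minus the gene's mean over 9 libraries, for ribosomal proteins, 3 other groups of complex subunits, and the shortest and longest quartile of all tested genes by length. The ribosomal proteins and the short genes are low in normal diet replicates 1 and 2 and high-fat diet replicate 1, and part in SCL-treated replicate 2, at 0.30 against -0.11.

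Markers of other cell types varied over the same libraries. The 4 of 9 erythroid markers tested, led by the globins Hba-a2 and Hbb, summed to 134 to 420 CPM in normal diet, 233 to 1205 in high-fat diet, and 361 to 1225 in SCL-treated livers. Their lowest 3 libraries, at 134, 233 and 330 CPM, were normal diet replicate 2, high-fat diet replicate 1 and normal diet replicate 1, which were also the 3 low libraries of the ribosomal proteins. Of these 4 markers, 3 had a log2 fold change above 0 for high-fat against normal diet and 1 was below, at -0.85. The 11 of 12 Kupffer cell and macrophage markers tested were all below 0 in both comparisons with normal diet, with medians of -0.61 for high-fat diet and -0.37 for SCL, and summed to 618 to 836, 298 to 677 and 269 to 765 CPM. Of the 10 of 12 T and NK cell markers tested, 9 had a log2 fold change above 0 for high-fat against normal diet. The median of all 10 was 0.64. The exception was Cd4 at -1.24 (SE 0.42), with 24.5, 22.7 and 13.4 CPM in normal diet and 12.4, 7.14 and 6.08 in high-fat diet. The 10 markers, Cd4 included, summed to 35.1 to 37.1, 24.4 to 46.3 and 32.2 to 50.3 CPM. None of the erythroid, macrophage, T and NK cell markers passed an adjusted p of 0.05 in edgeR. The 12 hepatocyte markers summed to 174687 to 211163 CPM in normal diet, 79988 to 166633 in high-fat diet and 81126 to 250490 in SCL-treated livers. The lowest sums were those of high-fat diet replicate 3 (79988) and SCL-treated replicate 2 (81126), the libraries of highest mitochondrial share. The macrophage sums were lowest there too, at 298 and 269 CPM. In high-fat diet replicate 1 the macrophage sum was 449 CPM. The other high-fat diet libraries had hepatocyte sums of 161702 and 166633 CPM, below the lowest control at 174687. Those of the other SCL-treated libraries were 174245 and 250490 CPM. For high-fat against normal diet all 12 hepatocyte markers were below 0, with a median of -0.53. For SCL against normal diet 11 were below 0 and 1 above, with a median of -0.47. The 5 of 8 B and plasma cell markers tested summed to 4.89 to 15.2, 8.57 to 25.9 and 15.3 to 38.6 CPM, and the 3 of 8 neutrophil markers to 4.75 to 8.06, 1.20 to 30.7 and 6.84 to 12.4 CPM. The markers in the tables that missed the count minimum were Timd4 (macrophage), Cd3d (T cell), Ms4a1 and Pax5 (B cell), Camp, Ngp and Cxcr2 (neutrophil), Ahsp (erythroid) and Krt7 (cholangiocyte). The 9 sinusoidal endothelial, 8 cholangiocyte and 9 stellate cell and fibroblast markers tested had medians of -0.20, 0.28 and -0.32 for high-fat against normal diet. Of them 2, 6 and 3 were above 0. For SCL against normal diet the medians were -0.13, 0.69 and -0.76, with 3, 6 and 3 above 0. The part of any of these cells in the members' profile was not tested.

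Other genes of the translation machinery were read from lists of known components, and none of their genes passed the threshold in any comparison in edgeR. Rack1, a signalling scaffold on the 40S head, had log2 fold changes of -0.17, 0.47 and 0.30 (SE 0.31 each) for high-fat against normal diet, SCL against high-fat diet and SCL against normal diet. The 17 tested TOP mRNAs other than ribosomal proteins had medians of 0.11, 0.13 and 0.23. Among them Tpt1 stood at 682, 678 and 604 CPM in normal diet, 431, 1141 and 1240 in high-fat diet, and 851, 1221 and 1024 in SCL-treated livers. Eef2, which moves the ribosome along the mRNA, stood at 1427 to 1511 CPM in normal diet, 918 to 1213 in high-fat diet and 800 to 1413 in SCL-treated livers. Tpt1 was thus lowest in high-fat diet replicate 1, like most members, and Eef2 in SCL-treated replicate 2.

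The nucleolar factors that assemble ribosomes had a median below 0 in the comparison of SCL with high-fat diet, where the median of the ribosomal proteins was above 0, or -0.10 without high-fat diet replicate 1. The difference between these groups of genes was not tested. Of 46 tested, 38 had a log2 fold change above 0 for the diet, with a median of 0.32, and 12 for SCL against high-fat diet, with a median of -0.21. Against normal diet the SCL median was 0.12. Npm1, the nucleolar chaperone, had log2 fold changes of 0.64 (SE 0.44), 0.02 (SE 0.44) and 0.67 (SE 0.44), and Ncl, the main nucleolar RNA-binding protein, 0.21 (SE 0.42), -0.82 (SE 0.42) and -0.60 (SE 0.42). The 2 comparisons share the high-fat diet libraries, and the assembly factors had their highest median, 0.56 above their own means, in high-fat diet replicate 3.

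The mTOR and LARP1 route that governs TOP mRNA translation had medians of -0.08, -0.21 and -0.07 over 16 tested genes. For SCL against high-fat diet 13 of the 16 were below 0 and 3 above. For SCL against normal diet 11 were below 0 and 5 above, with values from -1.54 to 0.55. The most abundant genes of this route were Rheb, the GTPase that activates mTOR, at 0.31, 0.24 and 0.55 (SE 0.25 each), and Akt1s1, an inhibitory partner of mTOR, at 0.21, -0.02 and 0.19 (SE 0.23 each). Initiation factors outside the TOP list had medians of -0.04, 0.03 and 0.08 over 27 genes. RNA polymerase I and III genes with Myc had medians of 0.06, -0.03 and 0.05 over 23 genes. Sensors of stalled ribosomes had medians of 0.09, -0.16 and -0.09 over 13 genes.

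Other large complexes were set beside the ribosome. The 70 mitochondrial ribosomal proteins tested had medians of 0.20, 0.12 and 0.37, the 78 nuclear-encoded respiratory chain genes 0.31, 0.18 and 0.37, and the 37 proteasome subunits 0.04, 0.17 and 0.26. All 3 groups lay below the ribosomal proteins in the comparison of SCL with normal diet, at 0.55. In SCL-treated replicate 2 the ribosomal proteins lay 0.30 above their own mean, while these groups lay at -0.18, -0.25 and -0.23. The differences between groups of genes were not tested.

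Promoter sequences are shown because the start of a ribosomal protein mRNA carries its TOP tract, which can be looked for at the annotated start. RefSeq on the rat build GRCr8 held 1 promoter entry for 55 of the 70 genes, more than 1 for Rps27a and none for the other 14. The windows below run from 50 bases before to 15 bases after the annotated start, 5′ to 3′ on the gene's strand, with CTTTC near the start in capitals. They are the P stalk genes, the most abundant gene, and genes among the highest and lowest fold changes of SCL against normal diet.
Rplp0 (GRCr8 chr12:46718376-46718440, minus strand): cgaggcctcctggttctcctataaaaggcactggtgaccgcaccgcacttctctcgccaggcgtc
Rplp1 (GRCr8 chr8:71290858-71290922, minus strand): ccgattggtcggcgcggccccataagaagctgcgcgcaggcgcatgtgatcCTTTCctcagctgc
Rpl41 (GRCr8 chr7:1563483-1563547, minus strand): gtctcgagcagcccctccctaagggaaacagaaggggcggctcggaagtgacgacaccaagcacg
Rpl29 (GRCr8 chr8:115947593-115947657, plus strand): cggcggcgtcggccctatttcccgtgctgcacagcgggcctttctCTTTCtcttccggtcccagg
Rpl26 (GRCr8 chr10:54109642-54109706, plus strand): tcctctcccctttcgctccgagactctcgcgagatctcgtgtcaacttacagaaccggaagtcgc
Rps12 (GRCr8 chr1:23500025-23500089, plus strand): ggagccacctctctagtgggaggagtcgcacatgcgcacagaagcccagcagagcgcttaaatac
Rps18 (GRCr8 chr20:4933695-4933759, plus strand): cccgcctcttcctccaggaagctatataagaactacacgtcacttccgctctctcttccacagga
Rpl23 (GRCr8 chr10:83272170-83272234, minus strand): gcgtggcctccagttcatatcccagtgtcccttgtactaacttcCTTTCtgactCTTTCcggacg
Rpl31 (GRCr8 chr9:49143061-49143125, plus strand): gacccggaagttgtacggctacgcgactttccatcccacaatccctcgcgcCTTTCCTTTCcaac
Rps16 (GRCr8 chr1:92770608-92770672, plus strand): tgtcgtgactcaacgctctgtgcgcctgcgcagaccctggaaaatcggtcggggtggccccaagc
Rplp1, Rpl29, Rpl23 and Rpl31 hold CTTTC near the start within these windows. In Rps16 it begins at the last base of the window shown and runs past its end, so it is not in capitals there, and Rps16 counts among the genes with it below. Rplp0 and Rps18 have runs of C and T of 8 and 11 letters without it, and Rpl41, Rpl26, Rps12 and Rps16 have runs of 1 to 3 letters at the annotated start.

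On the coding strand, from 10 bases before to 20 after the start, CTTTC was present in 24 of 55 members, or 43.6%, and in 3.39% of the 33469 promoters in the table. On the other strand of the same window it was present in 1.82% and 3.87%. A run of at least 8 C or T letters within 5 bases of the start was present in 63.6% of members and 9.06% of all promoters, and the median run was 10 against 3 letters. CCGGAAG, a core of ETS family sites, was present on either strand from 250 bases before to 50 after the start in 32.7% of members and 8.75% of all promoters. AAGATGG, a part of the YY1 site, was present in 18.2% and 7.01%, and GGGCGG, the Sp1 box, in 58.2% and 33.1%. TATAAA in the 50 bases before the start was present in 9.09% and 3.17%. CCGGAAG and AAGATGG can overlap, since the first ends with the letters that open the second. A match is a description of the letters alone.

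Genes with and without CTTTC at the start had similar median log2 fold changes. They were 0.27 and 0.38 for high-fat against normal diet, 0.20 and 0.25 for SCL against high-fat diet, and 0.54 and 0.52 for SCL against normal diet. Rpl29 and Rpl31, with long pyrimidine runs of 18 and 12 letters, were among the 5 highest and the 5 lowest fold changes of the last comparison.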

How the data were processed

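Libraries were built from Trizol-extracted total RNA of rat liver with NEBNext Ultra reagents, per the labels' protocols. Of the 2 tables the authors deposited, 1 holds normal and high-fat diet libraries (15929 genes) and 1 holds SCL-treated and high-fat diet libraries (15819 genes). Per the file headers they hold raw read counts, FPKM, and, as the authors' own comparison, a log2 fold change with its p-value, raw and adjusted. The authors also deposited a normalized signal, the count divided by a size factor per library. DESeq2, with no version, and the mouse build mm9 are named in the submitters' processing notes. The aligner, the counter and the treatment of strand and of reads with several matches were not given in the sources used here.

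The shared high-fat diet libraries held the same values in both tables, and the 15565 genes in both were used. Counts were fitted over all 9 libraries with edgeR 4.0.16 (TMM scaling, filterByExpr with a minimum count of 10, quasi-likelihood test, 6 residual degrees of freedom). P-values were adjusted by Benjamini-Hochberg over the 12041 genes tested, with a threshold of 0.05, and all 70 ribosomal protein genes passed the count filter. DESeq2 1.42.0, limma-voom (limma 3.58.1) with sample quality weights, other scalings, no filter, a replicate block and leaving out each library were alternatives. Scripts ran in R 4.3.3 and Python 3.11.15 and were tested on simulated data. Values between genes are in FPKM, and values of a gene between libraries in CPM after TMM scaling.

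Named genes were the 5 highest and 5 lowest members by log2 fold change in each comparison, by FPKM and by range over libraries. To these were added the P stalk, Rpsa, Rps6, Rpl3, Rpl13a, Rps4x and Rpl41, the 2 most abundant genes of each list where none passed the threshold, and the 10 most and 5 least similar other genes. The members, gene lists and rules were chosen with earlier results of these data known. Some genes that the rules name are not reported here. Promoter sequences came from RefSeq (GRCr8) by symbol, and no coordinate was taken from the deposited tables.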

Additional observations from a re-analysis of the deposited data

How the results depend on the processing

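No ribosomal protein gene passed an adjusted p of 0.05 in any comparison under any of the 21 alternatives run for each, which include edgeR with other scalings, DESeq2 and limma-voom. The lowest adjusted p of a member was 0.0588, under limma-voom for SCL against normal diet, and 0.0648 for high-fat against normal diet. The medians over the 70 genes ran from -0.07 to 0.71 for high-fat against normal diet, from -0.10 to 0.50 for SCL against high-fat diet, and from 0.23 to 0.86 for SCL against normal diet. They changed sign in 2, 2 and 0 of the alternatives, and the cause was not tested. With library totals alone as scaling, 52, 41 and 59 of the 70 genes were above 0, and with the mitochondrial share as a covariate 22, 58 and 53 were. Of reads outside mitochondrial transcripts, the members took a mean of 1.04% ± 0.324 (SD, n = 3) in normal diet, 1.46% ± 0.614 in high-fat diet and 1.59% ± 0.356 in SCL-treated livers. Outside those and the 100 most abundant other genes they took 2.19% ± 0.707 in normal diet, 2.74% ± 1.11 in high-fat diet and 3.09% ± 0.220 in SCL-treated livers. This share is higher in each group because the denominator is smaller. The libraries of the groups overlapped for both shares.

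Libraries of the same replicate number in different groups had correlations of -0.35 to 0.60, and 4 of 9 were above 0.1. Those of different numbers had -0.69 to 0.54. Such correlations cannot show whether the samples were paired, and the main fit took them as unpaired. With the replicate number as a block the medians were 0.27, 0.32 and 0.59 and no member passed the threshold, while 1, 4 and 10 members had an unadjusted p under 0.05 in place of 1, 1 and 3.

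With 3 libraries a group, the median standard error of a member was 0.44 on the log2 scale. Members with few reads, such as Rpl7a and Rpl35a, are limited by counting error as well, and those with abundant copies by how reads were assigned.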

Other observations

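A list of ribosomal protein paralogs outside the rule, with some genes of nearby names, was read beside the members. Whether any of them takes the place of a member was not tested. Of 7 tested, 5, 4 and 6 had a log2 fold change above 0 in high-fat against normal diet, SCL against high-fat diet and SCL against normal diet, with medians of 0.45, 0.22 and 0.41, and none passed the threshold in edgeR. Rpl36al, the autosomal paralog of the X-linked Rpl36a, stood at 69.1, 79.8 and 153 CPM in normal diet, 67.7, 179 and 171 in high-fat diet, and 166, 127 and 108 in SCL-treated livers. Rps27l, a paralog of Rps27 that p53 induces, stood at 42.0, 72.0 and 86.9 CPM in normal diet, 64.7, 123 and 85.9 in high-fat diet, and 137, 51.3 and 78.0 in SCL-treated livers. The groups overlapped for both genes.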
